A study of Mus musculus with 21 samples.

Results

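Fgf10, Stc2, Pim1, Bdkrb2 and C8b are 5 of the 24984 genes in a whole-gene count table of nascent RNA from mouse cortical cultures. They were chosen from that table by how their counts differed between 1 h and 4 h of bicuculline: Fgf10, Stc2 and Pim1 were higher at 4 h, and Bdkrb2 and C8b were lower. BrU-seq reads new transcripts: cells take up bromouridine, the RNA made during that time carries it, and this RNA is purified before sequencing. The cultures came from the cortex of CD1 mice and were used on day 17 in vitro. Cells had 30 min of pretreatment, either 25 µM MM401 or its DMSO vehicle, before they were given 40 µM bicuculline or water, and all groups received 2 mM bromouridine in the last 30 min. The DMSO groups were water at 4 h, bicuculline at 1 h and bicuculline at 4 h. The MM401 groups were water and bicuculline, each at 1 h and at 4 h. Each of the 7 groups had 3 libraries, described as biological replicates of mixed sex. A DMSO water group at 1 h was not analysed here, so in DMSO both bicuculline times were set against water at 4 h. The labels do not say that replicates came from separate cultures or litters, so p-values measure the spread between these libraries, which may be partly technical.

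Bicuculline blocks inhibitory GABA-A receptors and so raises the firing of cultured cortical networks, a standard stimulus for activity-dependent transcription. Genes of that programme are known to respond in waves: rapid ones, many of them transcription factors, are transcribed within minutes and then decline, and delayed ones follow. MM401 is a peptidomimetic that blocks the binding of the histone H3 lysine 4 methyltransferase MLL1 to its partner WDR5. Of the genes here, Fgf10 encodes a secreted growth factor that acts mainly through the FGFR2b receptor, Stc2 a secreted glycoprotein that inhibits the protease PAPP-A and so limits the release of IGF from its binding proteins, and Pim1 a short-lived serine/threonine kinase whose gene is a target of JAK-STAT signalling. Bdkrb2 encodes the constitutive bradykinin receptor, coupled to Gq, and C8b the beta chain of complement component C8, part of the membrane attack complex and known mainly as a liver product.

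The label "sharply transient" did not describe both genes in the same way. Bdkrb2 had its highest means in the bicuculline 1 h groups, which is the pattern it was chosen for, and its MM401 water 1 h mean was also 1.97-fold of that of water at 4 h. C8b under MM401 was about as high after 1 h in water as after 1 h in bicuculline, and in both pretreatments it was lower after 4 h of bicuculline than after 4 h in water. C8b is therefore described below as a gene that was lower at 4 h.

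The promoter sequences are shown because MLL1, the target of MM401, has a CXXC domain that binds DNA with unmethylated CpG dinucleotides. Each run is the 249 bases just before the RefSeq start site (GRCm38.p6), 5′ to 3′ on the gene's own strand, with CpG dinucleotides in capitals. The windows are chr13:118714449-118714697 (plus strand) for Fgf10, chr11:31370062-31370310 (minus strand) for Stc2, chr17:29490535-29490783 (plus strand) for Pim1, chr12:105562922-105563170 (plus strand) for Bdkrb2 and chr4:104766067-104766315 (plus strand) for C8b. For all 5 genes the RefSeq start was the start of the gene in the count table, which is on mm10.

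Fgf10: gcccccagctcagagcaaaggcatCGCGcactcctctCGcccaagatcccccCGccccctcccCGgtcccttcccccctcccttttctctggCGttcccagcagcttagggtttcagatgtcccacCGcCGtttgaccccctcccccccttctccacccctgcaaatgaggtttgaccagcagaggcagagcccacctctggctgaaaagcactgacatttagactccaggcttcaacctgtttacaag

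Stc2: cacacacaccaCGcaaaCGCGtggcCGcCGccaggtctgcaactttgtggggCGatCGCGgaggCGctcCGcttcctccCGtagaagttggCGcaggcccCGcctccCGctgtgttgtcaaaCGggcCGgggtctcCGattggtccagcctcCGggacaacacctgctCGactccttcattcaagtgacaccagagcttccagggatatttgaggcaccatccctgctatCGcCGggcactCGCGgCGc

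Pim1: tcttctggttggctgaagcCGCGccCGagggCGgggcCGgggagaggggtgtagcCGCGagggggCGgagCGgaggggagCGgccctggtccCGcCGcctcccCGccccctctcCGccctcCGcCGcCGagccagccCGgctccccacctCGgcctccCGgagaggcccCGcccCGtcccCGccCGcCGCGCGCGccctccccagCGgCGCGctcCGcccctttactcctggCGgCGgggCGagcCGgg

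Bdkrb2: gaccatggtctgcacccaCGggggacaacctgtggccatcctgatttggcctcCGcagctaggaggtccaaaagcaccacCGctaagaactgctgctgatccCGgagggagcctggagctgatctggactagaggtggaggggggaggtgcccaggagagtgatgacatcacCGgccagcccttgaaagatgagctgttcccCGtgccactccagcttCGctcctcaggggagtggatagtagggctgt

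C8b: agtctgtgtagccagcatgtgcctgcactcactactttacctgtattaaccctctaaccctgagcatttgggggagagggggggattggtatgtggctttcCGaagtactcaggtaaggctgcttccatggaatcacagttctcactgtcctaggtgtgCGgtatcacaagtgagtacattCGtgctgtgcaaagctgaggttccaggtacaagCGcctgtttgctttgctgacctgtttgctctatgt

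Pim1 had the most CpG, 36, and a GC content of 82.3%. Stc2 had 24 CpG, Fgf10 8, Bdkrb2 7 and C8b 4, against a median of 6 over 32851 promoters of this length. Thus Stc2 and Pim1 had more CpG than 88.1% and 97.5% of promoters, whereas the promoters of Fgf10, Bdkrb2 and C8b lay between 37.9% and 57.1%. None of 7 motifs of activity-regulated promoters was found on either strand of these windows, nor in that of a later Pim1 start site. They were the CRE (TGACGTCA, in 1.54% of all promoters), its core (TGACG, 17.7%, which every full CRE also holds), the AP-1 site (TGANTCA, 6.75%), the STAT site (TTCNNNGAA, 7%), the EGR site (GCGNGGGCG, 4.67%), the CArG box (1.46%) and the MEF2 site (2.92%). The absence says only that these letters were not in these windows. The CpG count was added after the motifs had given no match.

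The 20 libraries used held 49886348 to 87939384 counts each, with a median of 62996146. The third MM401 water 4 h library held 316741 counts, 0.503% of that median, and 0 to 3 counts of each of the 5 genes, and was left out, so that group had n = 2. All 5 genes passed the filter on low counts, as did 16959 genes in all, and their counts ran from 32 to 1000 a library. Levels are given as CPM, which are counts scaled to a common TMM-adjusted library total, and as CPM per kb of gene span where genes are set against each other. Fold changes are log2 values with standard errors from edgeR's quasi-likelihood fit over all tested genes. A gene was called at a Benjamini-Hochberg adjusted p-value under 0.05. Because the 5 genes were chosen on the bicuculline libraries, every bicuculline-against-water and 4 h-against-1 h value of theirs is a description without a test.

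The cultures expressed markers of several cell types. Summed over the libraries' marker lists, 7 neuronal genes gave 4827 to 7831 CPM, 6 astrocyte genes 414 to 848 CPM, 8 genes of the oligodendrocyte lineage 168 to 226 CPM, 6 microglial genes 23.5 to 40.5 CPM, 6 pericyte and fibroblast genes 8.33 to 14.0 CPM and 6 endothelial genes 2.78 to 4.37 CPM. The neuronal sum was 7360 to 7831 CPM in DMSO bicuculline 4 h against 4827 to 5998 CPM in DMSO water 4 h. Fewer cells of a type and less RNA per cell cannot be told apart in such bulk cultures.

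Among the late-rising genes, the secreted factor Fgf10 was near its water level at 1 h and, as a ratio of means, 5.45-fold of it at 4 h in DMSO. In DMSO its values were 0.921, 1.09 and 0.956 CPM in water at 4 h, 1.00, 0.902 and 0.847 CPM in bicuculline at 1 h, and 6.12, 5.14 and 4.92 CPM in bicuculline at 4 h. Under MM401 they were 0.922, 0.668 and 0.643 CPM in water at 1 h, 0.832 and 0.739 CPM in water at 4 h, 1.18, 0.966 and 0.808 CPM in bicuculline at 1 h, and 4.58, 4.86 and 4.20 CPM in bicuculline at 4 h. All 6 bicuculline 4 h libraries lay far above the other 14, and at 1 h the bicuculline and water libraries overlapped in each pretreatment. Against water, the log2 fold change of Fgf10 was -0.11 ± 0.17 at 1 h and 2.43 ± 0.15 at 4 h in DMSO, and 0.39 ± 0.18 and 2.53 ± 0.19 under MM401.

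Stc2, the PAPP-A inhibitor, had a higher base level and a smaller 4 h difference than Fgf10. In DMSO it gave 3.39, 3.44 and 3.13 CPM in water at 4 h, 3.36, 2.83 and 2.66 CPM in bicuculline at 1 h, and 10.03, 11.3 and 12.4 CPM in bicuculline at 4 h. Under MM401 it gave 3.64, 3.55 and 4.01 CPM in water at 1 h, 3.83 and 3.92 CPM in water at 4 h, 2.71, 3.05 and 3.16 CPM in bicuculline at 1 h, and 12.2, 12.3 and 12.9 CPM in bicuculline at 4 h. Under MM401 every bicuculline 1 h library was below every water 1 h library, while in DMSO the 1 h and water libraries overlapped. The log2 fold change against water was -0.17 ± 0.11 at 1 h and 1.76 ± 0.10 at 4 h in DMSO, and -0.32 ± 0.11 and 1.68 ± 0.12 under MM401. Stc2 was thus the 1 late-rising gene whose mean lay below water at 1 h in both pretreatments.

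Pim1, the kinase gene, was the late-rising gene whose bicuculline 1 h libraries all lay above water in each pretreatment. In DMSO its values were 2.27, 2.51 and 2.77 CPM in water at 4 h, 3.04, 2.84 and 3.51 CPM in bicuculline at 1 h, and 13.8, 12.8 and 10.5 CPM in bicuculline at 4 h. Under MM401 they were 2.60, 2.17 and 2.56 CPM in water at 1 h, 1.96 and 2.10 CPM in water at 4 h, 3.84, 3.52 and 3.62 CPM in bicuculline at 1 h, and 13.2, 13.8 and 13.5 CPM in bicuculline at 4 h. In each pretreatment the water, 1 h and 4 h libraries formed 3 separate steps without overlap. The log2 fold change against water was 0.30 ± 0.12 at 1 h and 2.28 ± 0.12 at 4 h in DMSO, and 0.58 ± 0.12 and 2.73 ± 0.14 under MM401. Per kb of gene span, Pim1 was the most densely transcribed of the 5 genes in every group, from 0.381 CPM per kb in MM401 water 4 h to 2.54 CPM per kb in MM401 bicuculline 4 h. Fgf10, whose span of 77876 bp is the longest, reached 0.0692 CPM per kb at its highest.

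**Figure D1:**
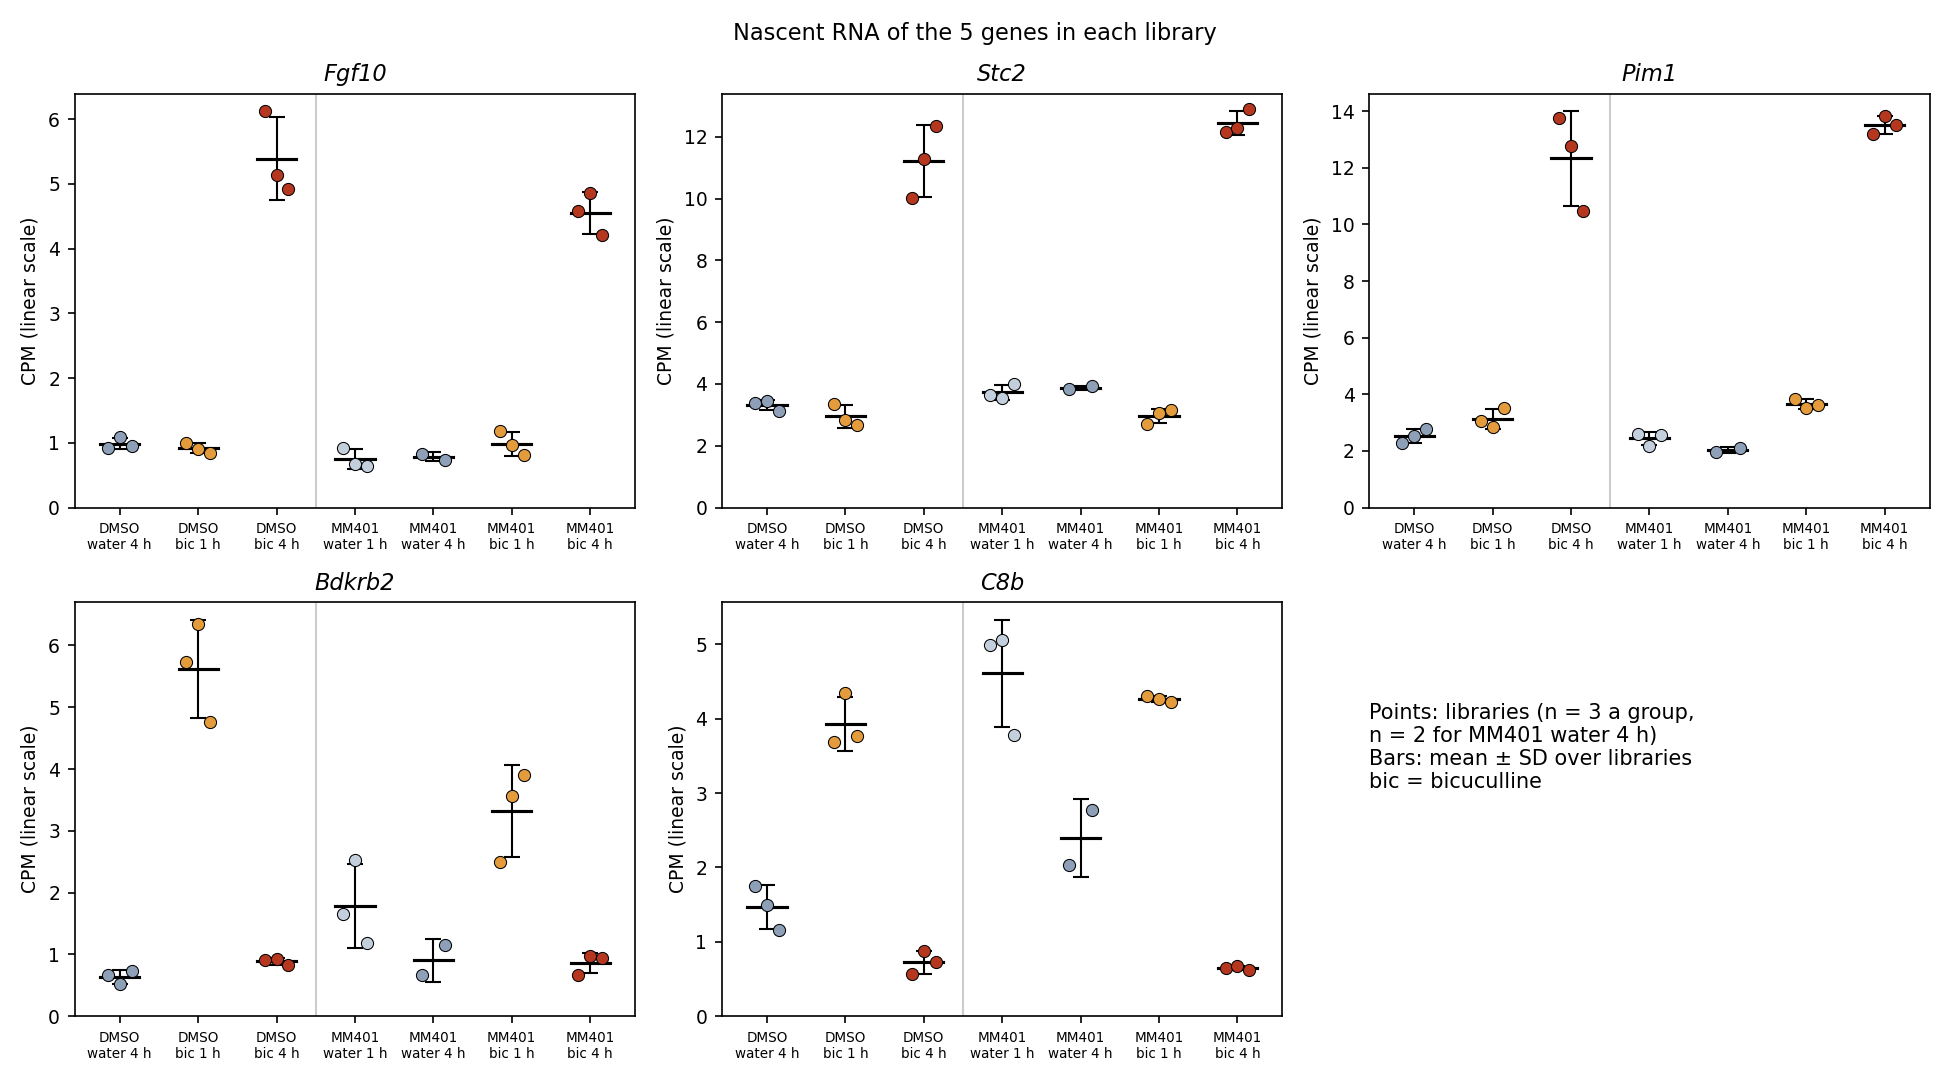
CPM (linear scale, y axis) of Fgf10, Stc2, Pim1, Bdkrb2 and C8b in each of 20 libraries, by group (x axis); points are libraries, bars the mean ± SD (n = 3, n = 2 for MM401 water 4 h). The upper 3 genes are high in both bicuculline 4 h groups only, Bdkrb2 is highest in DMSO bicuculline 1 h (mean 5.61 CPM), and C8b is as high in MM401 water 1 h (4.61 CPM) as in MM401 bicuculline 1 h (4.26 CPM).

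Among the genes that were lower at 4 h, the bradykinin receptor gene Bdkrb2 was 8.82-fold of water in DMSO at 1 h and had returned close to water by 4 h. In DMSO its values were 0.663, 0.516 and 0.730 CPM in water at 4 h, 5.73, 6.35 and 4.77 CPM in bicuculline at 1 h, and 0.902, 0.922 and 0.828 CPM in bicuculline at 4 h. Under MM401 they were 1.65, 2.52 and 1.18 CPM in water at 1 h, 0.659 and 1.15 CPM in water at 4 h, 2.49, 3.57 and 3.91 CPM in bicuculline at 1 h, and 0.673, 0.973 and 0.934 CPM in bicuculline at 4 h. The DMSO bicuculline 1 h libraries were the highest 3 of all 20, and under MM401 the lowest bicuculline 1 h library lay just below the highest water 1 h library. The log2 fold change against water was 3.15 ± 0.25 at 1 h and 0.48 ± 0.28 at 4 h in DMSO. Under MM401 it was 0.90 ± 0.23 at 1 h against water at 1 h, and -0.08 ± 0.31 at 4 h against water at 4 h. The 1 h values of the pretreatments have water groups of different times, so they are set side by side and not compared. As ratios of group means, DMSO bicuculline 1 h was 8.82-fold of water at 4 h, and MM401 bicuculline 1 h was 1.86-fold of water at 1 h but 3.67-fold of water at 4 h.

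The complement gene C8b was not a bicuculline-induced peak in the arm that had water at both times. In DMSO its values were 1.75, 1.49 and 1.16 CPM in water at 4 h, 3.68, 4.34 and 3.76 CPM in bicuculline at 1 h, and 0.566, 0.878 and 0.729 CPM in bicuculline at 4 h. Under MM401 they were 4.997, 5.06 and 3.78 CPM in water at 1 h, 2.03 and 2.77 CPM in water at 4 h, 4.30, 4.27 and 4.22 CPM in bicuculline at 1 h, and 0.641, 0.673 and 0.618 CPM in bicuculline at 4 h. The 9 libraries of 1 h, in water or bicuculline, were the highest 9, the 5 water 4 h libraries came next, and the 6 bicuculline 4 h libraries were the lowest. In DMSO the log2 fold change against water at 4 h was 1.44 ± 0.16 at 1 h and -0.99 ± 0.19 at 4 h. Under MM401, against water of the same time, it was -0.11 ± 0.15 at 1 h and -1.90 ± 0.21 at 4 h. The DMSO difference at 1 h sets a 1 h group against a 4 h group, and its time and its bicuculline cannot be told apart.

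Between 1 h and 4 h of bicuculline, the contrast on which the genes were chosen, Fgf10 differed by 2.55 ± 0.15 in DMSO and 2.22 ± 0.16 under MM401, Stc2 by 1.92 ± 0.10 and 2.06 ± 0.11, and Pim1 by 1.98 ± 0.11 and 1.89 ± 0.11. Bdkrb2 differed by -2.67 ± 0.24 and -1.96 ± 0.25, and C8b by -2.43 ± 0.18 and -2.73 ± 0.18. In this contrast 34.2% of all genes were called in DMSO and 33.6% under MM401. The next ranks leave out predicted and clone-named genes, small RNA genes, mitochondrial genes and ribosomal pseudogenes. Among the other genes whose higher mean reached 2 CPM, Pim1 was the third highest in DMSO, just ahead of Serpinb2 at 1.96. Stc2 was the third highest under MM401, ahead of Dennd2c at 1.97. C8b was the third lowest in DMSO, ahead of Angptl2 at -2.27. Inhba, Egr4 and Rec114 ranked among those first 3 as well and were not taken as members. In the same ranking Stc2 had rank 5 in DMSO, and Pim1 had rank 6 and Bdkrb2 rank 10 under MM401. Over all tested genes Pim1 had rank 22 in DMSO, Stc2 rank 25 under MM401 and C8b rank 13 in DMSO.

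The order of the 7 group means differed among the genes. For Fgf10 DMSO bicuculline 4 h (5.39 ± 0.640 CPM, SD, n = 3) stood above MM401 bicuculline 4 h (4.55 ± 0.330), without overlap, while for Stc2 and Pim1 the same groups overlapped (12.4 ± 0.392 CPM under MM401 and 11.2 ± 1.16 in DMSO for Stc2, 13.5 ± 0.311 and 12.3 ± 1.69 for Pim1). For Bdkrb2 the lowest 4 groups, both water 4 h and both bicuculline 4 h groups, lay between 0.637 and 0.905 CPM and each overlapped its neighbour in the order. For C8b the highest 3 means, 4.61 ± 0.720, 4.26 ± 0.0408 and 3.93 ± 0.359 CPM, all of 1 h groups, overlapped in turn, and so did the lowest 2, the bicuculline 4 h groups at 0.724 ± 0.156 and 0.644 ± 0.0278 CPM.

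The comparison of water at 4 h with water at 1 h under MM401 asks which genes changed with time in the absence of bicuculline, and it did not enter the choice of the 5 genes. Both groups held MM401, so time in water and time under MM401 cannot be told apart. C8b fell by 0.94 ± 0.18 on the log2 scale (adjusted p = 0.00953), with both 4 h libraries below all 3 of 1 h. It was the 1 gene of the 5 called by edgeR, in a comparison where 0.867% of all genes were called, 0.265% higher and 0.601% lower. Bdkrb2 had a difference of the same size, -0.98 ± 0.29, but was not called by edgeR (adjusted p = 0.145), while DESeq2 called it (adjusted p = 0.0464), and its 95% interval ran from -1.59 to -0.37. Fgf10 (0.08 ± 0.21), Stc2 (0.05 ± 0.12) and Pim1 (-0.27 ± 0.14) were not called, with adjusted p-values of 0.966, 0.959 and 0.583 in edgeR's test. The call of C8b was lost without MM401 water 4 h replicate 1 (adjusted p = 0.313), without MM401 water 1 h replicate 2 (0.0562) and with the shallow library included (0.0545). Without MM401 water 4 h replicate 1 the 4 h group is 1 library, assumed to vary as the other groups do, and 14 genes in place of 147 were called.

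C8b had the eighth largest decrease among the 102 genes called lower in water at 4 h. Of those 102 genes, 85 (83.3%) were also called lower at 4 h than at 1 h of bicuculline in DMSO, which has no library in common with the water comparison. They made up 3.30% of the 2572 genes called lower there, where 15.2% of all genes were called lower, and 2 of the 102 were called higher.

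**Figure D2:**
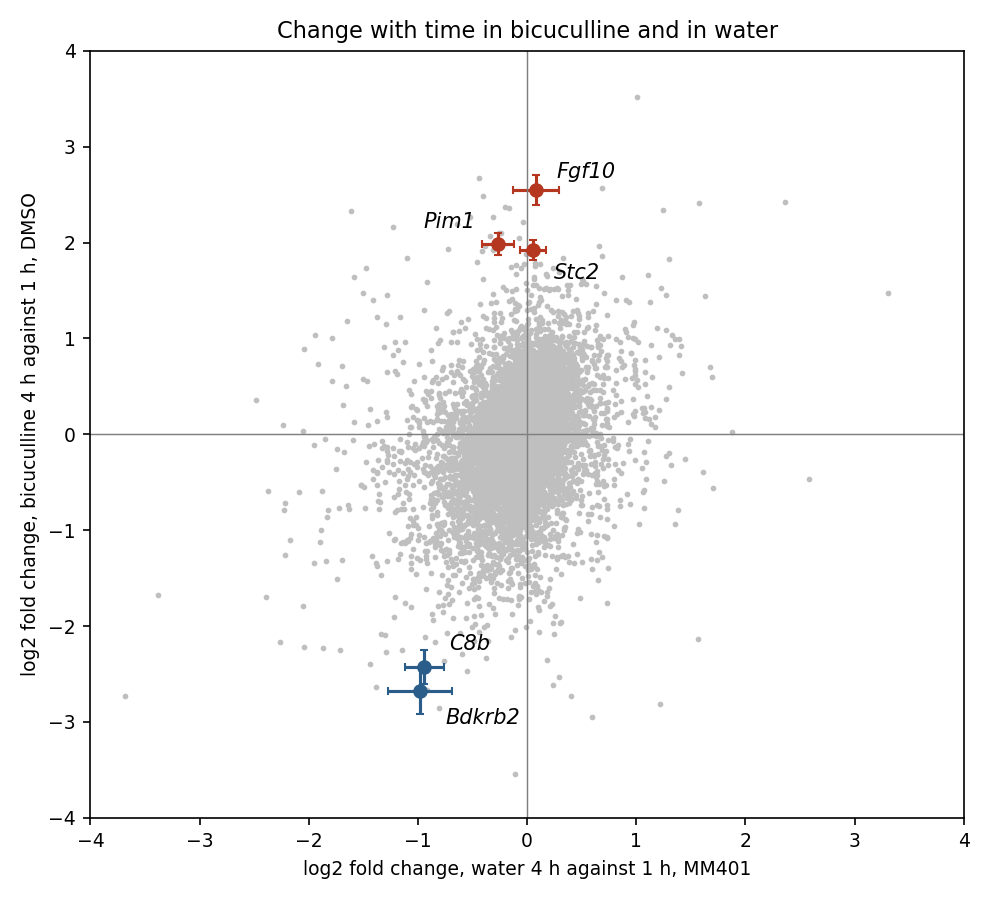
Log2 fold change of 4 h against 1 h in bicuculline in DMSO (y axis) against that in water under MM401 (x axis), 2 comparisons without a common library, for 16958 genes (grey; 1 gene lies outside the axes); coloured points are the 5 genes with SE bars. C8b and Bdkrb2 lie left of 0 at -0.94 and -0.98 in water, and Fgf10, Stc2 and Pim1 lie between -0.27 and 0.08.

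The marker sums of astrocytes and neurons moved with this comparison, in opposite directions. The astrocyte sum was 518 to 697 CPM in MM401 water 1 h and 414 to 509 CPM in MM401 water 4 h. The neuronal sum was 4883 to 5169 CPM in MM401 water 1 h and 5712 to 5801 CPM in MM401 water 4 h. In water at 4 h against 1 h, 1 of the 6 astrocyte markers was called lower and no marker of the other lists was called. In bicuculline the astrocyte sum was 718 to 848 CPM over the 6 libraries of 1 h and 570 to 657 CPM over the 6 of 4 h, and Bdkrb2 and C8b were lower at 4 h as well. The single astrocyte markers went both ways there: 1 of 6 was called higher and 2 lower at 4 h, in DMSO and again under MM401. The part of cell composition in the values of Bdkrb2 and C8b was not tested.

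MM401 against DMSO asks whether the MLL1-WDR5 inhibitor changed the transcription of these genes. Of its 3 comparisons, only that in water at 4 h leaves out the bicuculline libraries on which the genes were chosen. None of the 5 was called there, but so few of all genes were called that this says little about the 5. In water at 4 h, where 0.0826% of all genes were called, C8b differed by 0.72 ± 0.19 without being called (adjusted p = 0.136), and its 2 MM401 libraries lay above all 3 of DMSO. Pim1 was -0.32 ± 0.14 (adjusted p = 0.350), Fgf10 -0.34 ± 0.20 (0.466), Stc2 0.22 ± 0.12 (0.426) and Bdkrb2 0.52 ± 0.32 (0.484). C8b passed the threshold in this comparison by DESeq2 (adjusted p = 0.0338), and in edgeR without DMSO water 4 h replicate 1 (0.0130). Without that library 1272 genes were called in place of 14.

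At 1 h of bicuculline, 1 gene of all tested, 0.0059%, was called, and it was none of the 5. Bdkrb2 differed by -0.75 ± 0.21, with all 3 MM401 libraries (2.49 to 3.91 CPM) below all 3 of DMSO (4.77 to 6.35 CPM). Bdkrb2 was chosen on bicuculline 1 h and 4 h libraries, so this difference is a description without a test. The other 4 genes lay between 0.01 and 0.23 on the log2 scale, and 540 genes had an unadjusted p under 0.05. At 4 h of bicuculline no gene of all tested was called by edgeR (0%), with 1309 at an unadjusted p under 0.05, and DESeq2 called 7. The differences of the 5 genes ran from -0.24 (Fgf10) to 0.15 (Stc2). The bicuculline libraries had also entered the choice of the genes.

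The interaction at 4 h asks whether the bicuculline response against water differed between MM401 and DMSO. It uses the bicuculline 4 h libraries on which the 5 genes were chosen, so their values are given as a description. No gene was called by edgeR (0%), with 2552 at an unadjusted p under 0.05, while DESeq2 called 436. C8b had the largest value of the 5, -0.90 ± 0.28, followed by Bdkrb2 at -0.56 ± 0.42 and Pim1 at 0.45 ± 0.18. For C8b the value reflects group means of 2.40 CPM in MM401 water against 1.46 CPM in DMSO water, with bicuculline 4 h means of 0.644 and 0.724 CPM. Over single-library omissions the interaction of C8b ran from -1.11 to -0.67. Fgf10 (0.10 ± 0.24) and Stc2 (-0.08 ± 0.15) were close to 0.

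**Figure D3:**
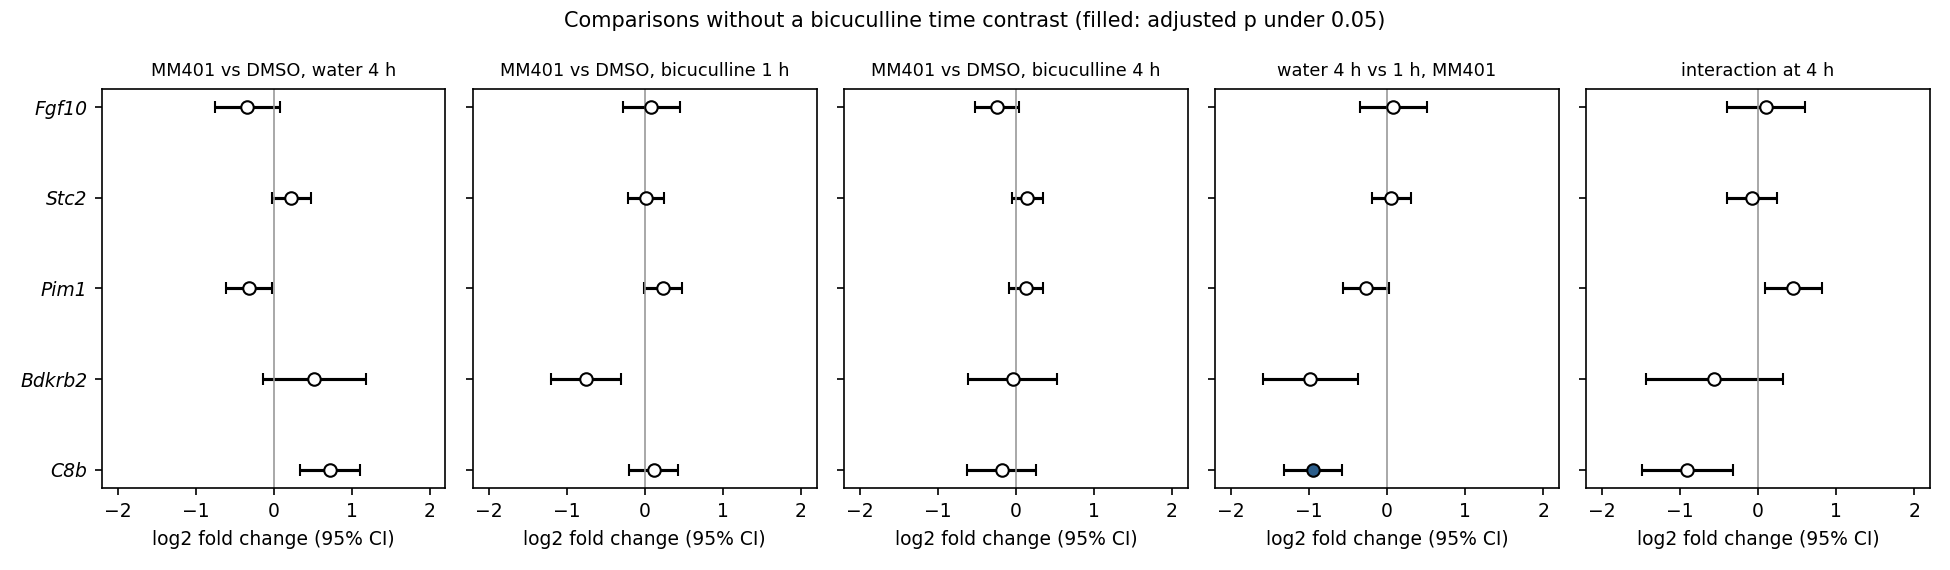
Log2 fold changes with 95% confidence intervals (x axis) of the 5 genes in the 5 comparisons other than bicuculline against water or 4 h against 1 h of bicuculline; filled points have an adjusted p under 0.05 in edgeR's fit. C8b in water at 4 h against 1 h (-0.94) is the 1 filled point, and open points whose interval leaves out 0 (Pim1 and C8b in water 4 h and in the interaction, Bdkrb2 at bicuculline 1 h and in water over time) are not called. The panels that hold bicuculline libraries use values from the choice of the genes.

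Genes of the same pathways were taken from lists that leave out the 5 genes, and their counts are read against the share of all genes called: 44.6% for bicuculline at 1 h in DMSO, of which 20% were called higher and 24.5% lower, as a share of all genes. For 1 h under MM401 it was 39.9%, with 18.1% higher and 21.8% lower. At 4 h it was 49.2% in DMSO, with 23.7% higher and 25.5% lower, and 44.6% under MM401, with 23% higher and 21.7% lower. Of 19 tested FGF ligands, receptors and co-receptors, 7 rose and 2 fell at 4 h in DMSO, and 3 rose and 1 fell under MM401, with median log2 fold changes of 0.01 and 0.04 beside -0.02 and 0.02 over all genes. Fgf5 and Fgf9, ligands known in brain, rose at 4 h by 1.62 ± 0.10 and 1.09 ± 0.08 in DMSO (adjusted p = 1.2e-11 and 1.8e-10). Unlike Fgf10, Fgf5 had already risen at 1 h, by 1.22 ± 0.10 in DMSO and 0.98 ± 0.10 under MM401 (adjusted p = 1.5e-09 and 3.9e-08). Fgf7, the ligand closest to Fgf10 in receptor use, fell between 1 h and 4 h of bicuculline, by 0.89 ± 0.16 in DMSO and 0.74 ± 0.16 under MM401 (adjusted p = 0.00013 and 0.00094). Fgf3 and Fgf22, of the same subfamily, had 0 to 10 counts a library and were not tested. Fgfr2, the gene of the FGF10 receptor, rose at 1 h by 1.00 ± 0.12 in DMSO against water at 4 h (adjusted p = 4.0e-06), and by 0.61 ± 0.12 under MM401 against water at 1 h (0.000645, or 0.0504 with unscaled library sizes). It fell between 1 h and 4 h of bicuculline, by 0.72 ± 0.12 and 0.81 ± 0.12. Fgfr2 was also lower in water at 4 h than at 1 h, by 0.65 ± 0.14 (adjusted p = 0.0293), a call lost with unscaled library sizes (0.0757), without the filter (0.0551), with the shallow library (0.0545) and without any 1 of MM401 water 4 h replicates 1 and 2 (0.345, 0.148) or MM401 water 1 h replicates 2 and 3 (0.105, 0.0990).

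Of 13 tested genes of the PAPP-A and IGF list, 6 rose and 3 fell at 4 h in DMSO, and 7 rose and 1 fell under MM401. Stc1, the paralog of Stc2, was below water at both times: it fell in bicuculline by 0.91 ± 0.10 at 1 h and 0.54 ± 0.10 at 4 h in DMSO, and by 0.82 ± 0.11 and 0.61 ± 0.11 under MM401, with adjusted p-values from 3.7e-07 to 0.00017. Pappa, the protease that STC2 inhibits, rose by 1.51 ± 0.11 at 4 h in DMSO and 1.04 ± 0.12 under MM401 (adjusted p = 4.7e-10 and 1.0e-06). Igf1r, the IGF receptor gene, rose by 0.82 ± 0.07 and 0.73 ± 0.08 at 4 h (adjusted p = 1.4e-09 and 1.0e-07).

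Of 24 tested genes of the PIM and JAK-STAT list, 6 rose and 5 fell at 1 h in DMSO, and 6 rose and 3 fell at 1 h under MM401. At 4 h 12 rose and 3 fell in DMSO, and 16 rose and 3 fell under MM401. In that MM401 comparison the microglial marker sum was 26.1 to 29.4 CPM in water and 36.0 to 40.5 CPM in bicuculline, with 2 of 5 tested markers called higher, and the astrocyte sum was 414 to 509 CPM and 570 to 648 CPM, with 3 of 6 called higher. The part of these cell types in the counts of this and the other lists was not tested. The list's median at 4 h was 0.30 in DMSO and 0.35 under MM401, beside -0.02 and 0.02 over all genes. Pim3 had the time course opposite to Pim1: it rose by 1.40 ± 0.15 at 1 h in DMSO and 1.57 ± 0.15 under MM401 (adjusted p = 9.6e-08 and 2.1e-08), and then fell between 1 h and 4 h by 1.10 ± 0.14 and 0.94 ± 0.14. Pim2 rose at 4 h by 0.28 ± 0.08 in DMSO (adjusted p = 0.0071), which with unscaled library sizes was 0.0020 (adjusted p = 0.989). The kinase gene Jak2 rose at 4 h by 0.63 ± 0.06 and 0.58 ± 0.07, and the receptor gene Lifr by 0.58 ± 0.07 and 0.71 ± 0.07. Cish, a feedback inhibitor and STAT5 target, rose by 0.69 ± 0.15 and 0.82 ± 0.16, whereas Socs2, another such inhibitor, fell by 0.90 ± 0.09 and 0.62 ± 0.11.

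Of 8 tested kinin genes, 2 rose and 1 fell at 1 h in DMSO, and none was called at 1 h under MM401. At 4 h 3 rose and 1 fell in DMSO, and 2 rose and 1 fell under MM401. Bdkrb1, the inducible bradykinin receptor gene 11018 bp beyond Bdkrb2 on the same strand, had 0 to 2 counts a library and was not tested. Kng2, a kininogen gene, was not called at any time and lay between 9.12 and 10.3 CPM in the group means. The carboxypeptidase genes Cpm and Cpn1, whose products cut the last residue off kinins, rose at 4 h in DMSO by 1.27 ± 0.11 and 2.00 ± 0.37 (adjusted p = 4.7e-09 and 0.00011). Cpn1 was near the floor, with 3 to 10 counts a library in DMSO water 4 h and 23 to 34 in DMSO bicuculline 4 h. Mme, the gene of the kinin-degrading peptidase neprilysin, fell by 0.46 ± 0.12 (adjusted p = 0.0036).

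Of 19 tested complement genes, 1 rose and none fell at 1 h in DMSO, and 1 rose and 1 fell at 1 h under MM401. At 4 h 1 rose and 1 fell in DMSO, below the share of all genes called, while 7 rose and 1 fell under MM401. The list's median at 4 h was 0.26 in DMSO, with 14 genes above 0, and 0.53 under MM401, with 15. Over all genes the medians were -0.02 and 0.02. Low counts limit the calls: Cfi, for example, had 4 to 13 counts a library in DMSO water 4 h. At 4 h under MM401 the microglial (36.0 to 40.5 CPM in bicuculline) and astrocyte marker sums stood above water. In DMSO at 4 h the microglial sum was 26.3 to 31.2 CPM in water and 32.0 to 36.9 CPM in bicuculline, with 1 of 5 tested markers called higher. The astrocyte sums overlapped there. Cd46, a membrane regulator, fell at 4 h by 0.63 ± 0.09 in DMSO and 0.60 ± 0.10 under MM401. C7, a partner of C8b in the membrane attack complex, was not called and lay between 1.72 and 2.25 CPM in the group means. C8a and C8g, the genes of the other C8 chains, had 5 to 22 and 5 to 23 counts a library, against 32 to 361 for C8b, and were not called in any bicuculline comparison. C6 and C9 had at most 10 counts and were not tested.

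**Figure D4:**
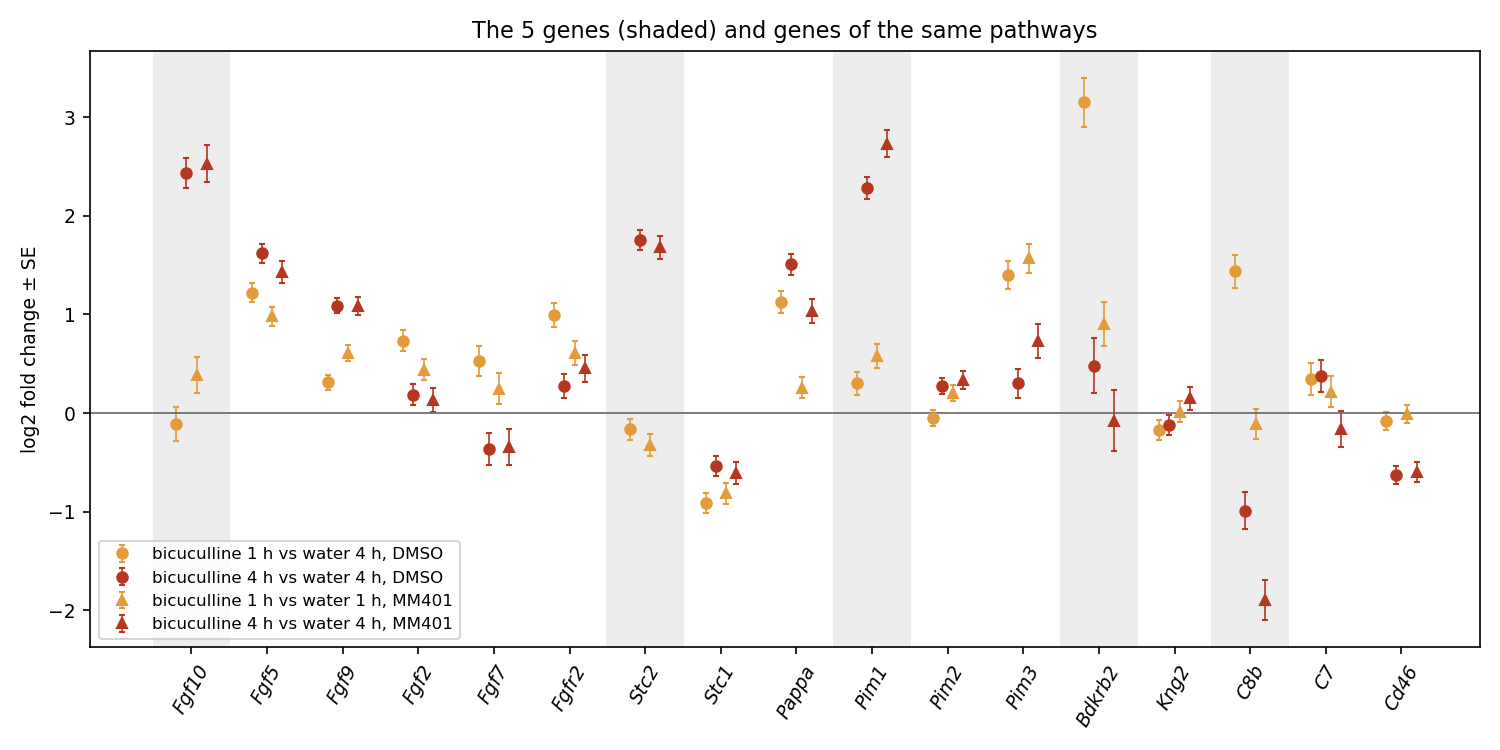
Log2 fold change ± SE (y axis) in bicuculline at 1 h and 4 h against water, in DMSO (circles) and under MM401 (triangles), for the 5 genes (shaded) and genes of their pathways (x axis). Pim1 is higher at 4 h than at 1 h and Pim3 is higher at 1 h (1.40 and 1.57), while Stc2 is above 0 at 4 h and Stc1 is below 0 throughout.

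No gene in the table overlapped any of the 5. C8b (chr4:104766316-104804548, plus strand) starts 21471 bp downstream of Dab1 on the same strand, a reelin adaptor gene whose group means were 898 to 1067 CPM. Per kb, Dab1 stood at 2.38 to 2.83 CPM per kb and C8b at 0.0168 to 0.121 CPM per kb. Dab1 was not called in any comparison: it was 0.12 ± 0.11 in water at 4 h against 1 h (adjusted p = 0.831), and 0.11 ± 0.10 at 1 h and 0.18 ± 0.10 at 4 h in DMSO. C8a lies 11130 bp beyond C8b on the other strand, and its mean level per kb was at most 0.00432 CPM per kb. The part of reads that run on from Dab1 in the counts of C8b was not tested. Stc2 (chr11:31359440-31370061, minus strand) lies between Asb3, 256735 bp away, and Bod1, 295087 bp away. Asb3 fell between 1 h and 4 h of bicuculline by 0.30 ± 0.06 in DMSO and 0.35 ± 0.06 under MM401 (adjusted p = 0.00035 and 8.0e-05), whereas Bod1 rose by 0.55 ± 0.10 in DMSO and 0.53 ± 0.10 under MM401 (adjusted p = 0.00017 and 0.00030). Fgd2 and Tmem217, the neighbours of Pim1 (chr17:29490784-29496110, plus strand), were not called in any comparison, and Nnt, 541742 bp beyond Fgf10 (chr13:118714698-118792573, plus strand), differed by at most 0.15 against water and by -0.27 ± 0.05 between 1 h and 4 h of bicuculline under MM401. Beside Bdkrb2 (chr12:105563171-105593071, plus strand), both neighbours had at most 2 counts.

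The genes most alike were the 3 with the highest Pearson correlation of log2 CPM over the 20 libraries, among 13087 genes of at least 1 CPM. Predicted and clone-named genes, small RNA genes, mitochondrial genes and ribosomal pseudogenes were left out here too. These libraries share their treatment groups, so the values describe likeness and have no test. For Fgf10 they were Rnf43 (r = 0.983), Cftr (0.983) and Acadm (0.982), for Stc2 Rab39, Ppp1r13l and Washc4 (0.973 each), and for Pim1 Osgin2 (0.988), Slc30a4 (0.986) and C1galt1 (0.986). Their differences at 4 h against water in DMSO were smaller than those of the gene they resembled, from 0.61 (Washc4) to 1.76 (Cftr). For Bdkrb2 they were Col12a1 (0.959), Cd44 (0.953) and Igfbp2 (0.950). Like Bdkrb2, these were higher at 1 h than in water in both pretreatments, and in water at 4 h against 1 h they were at -0.88 ± 0.13, -0.60 ± 0.11 and -0.33 ± 0.17. For C8b they were Rec114 (0.972), Gas2 (0.967) and Nol10 (0.966). Rec114 had the pattern of C8b in each group: 4.15 CPM in MM401 water 1 h beside 3.77 CPM in MM401 bicuculline 1 h, and 0.948 and 0.817 CPM in the bicuculline 4 h groups beside 2.19 and 2.81 CPM in water at 4 h.

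**Figure D5:**
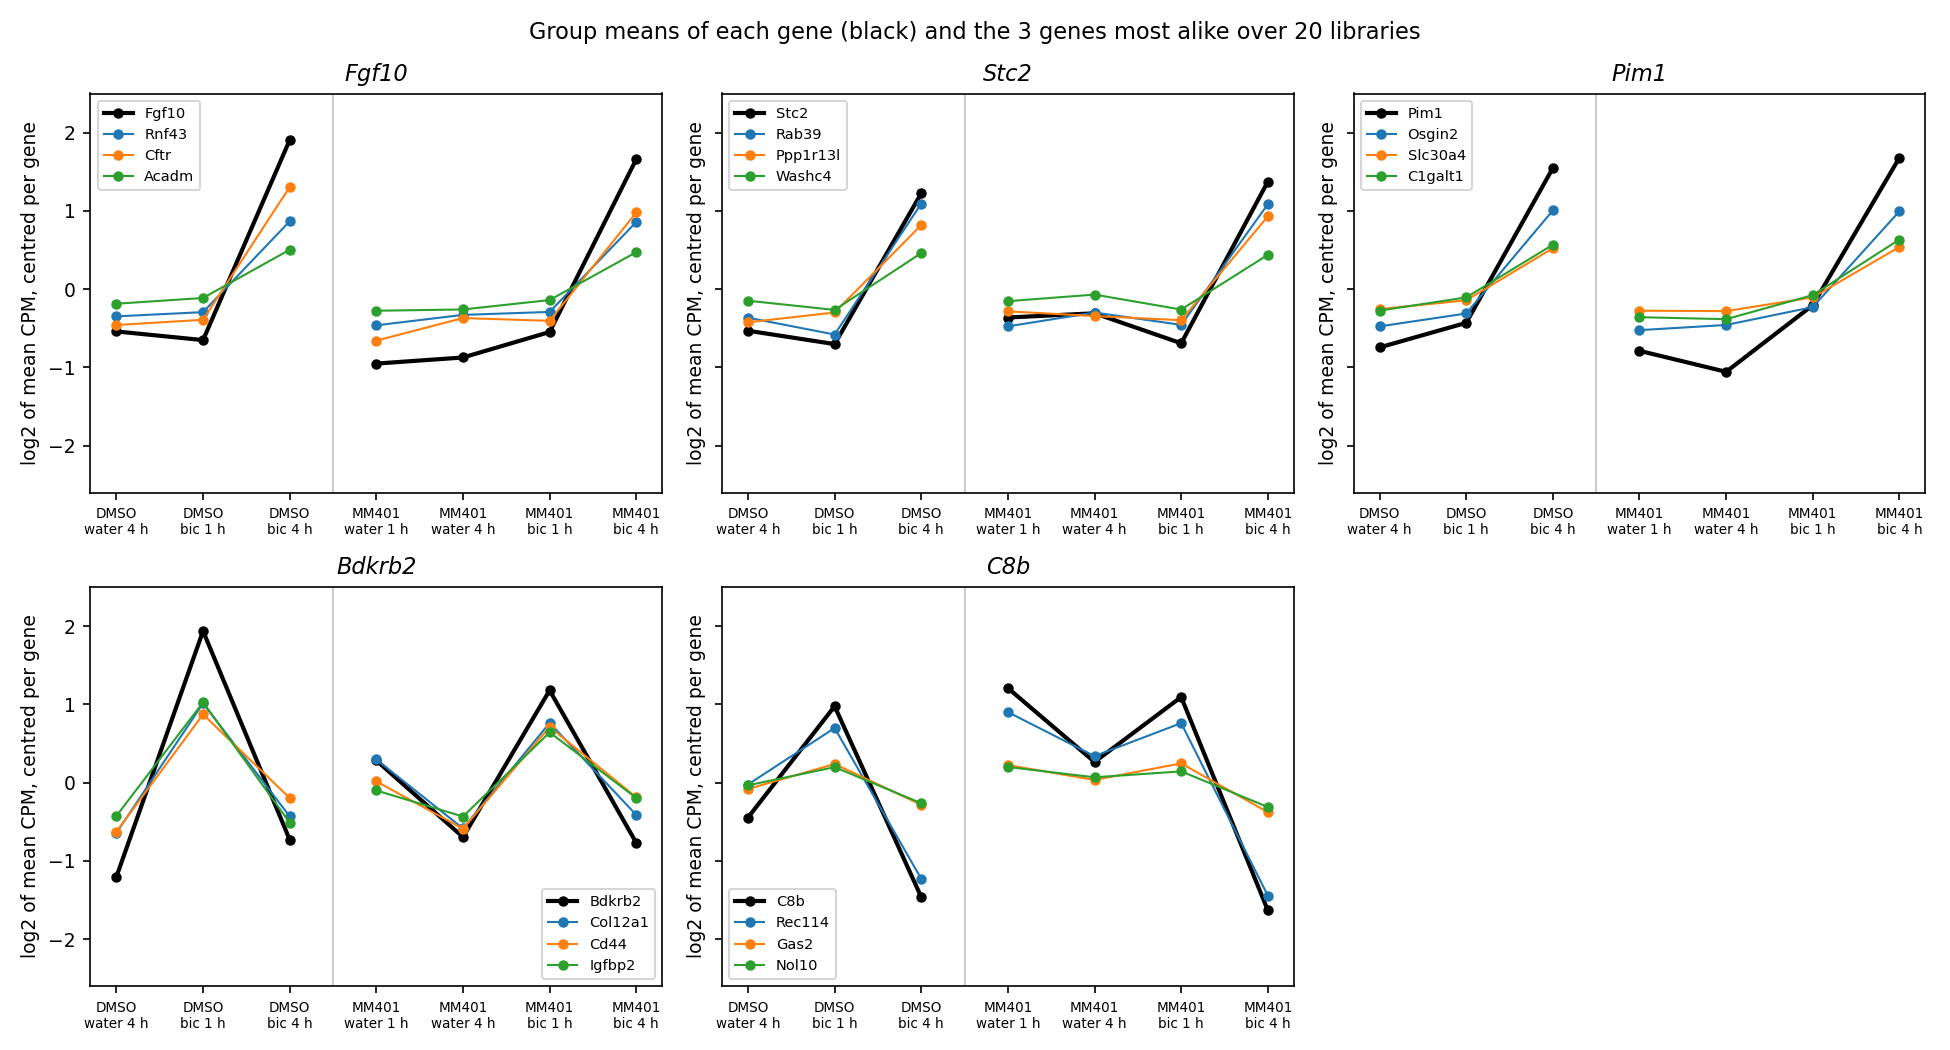
Log2 of the mean CPM in each of the 7 groups (x axis), centred per gene (y axis), for each of the 5 genes (black) and the 3 genes most alike over 20 libraries; lines join groups of 1 pretreatment only. The panel of Bdkrb2 peaks at bicuculline 1 h, whereas C8b and Rec114 are as high in MM401 water 1 h (4.61 and 4.15 CPM) as in MM401 bicuculline 1 h (4.26 and 3.77 CPM).

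Over the same 20 libraries the 3 late-rising genes correlated with one another at r = 0.915 to 0.970, and C8b with them at -0.874 to -0.797. Bdkrb2 and C8b, set together by their decrease from 1 h to 4 h, correlated at 0.724, and Bdkrb2 with the late-rising genes at -0.527 to -0.290.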

How the data were processed

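The unit was the raw read count per gene over its whole span, introns included, as deposited by the authors in 1 table; per the file headers it has the columns featureCounts writes, and per the submitters' processing notes the build was mm10 and Bowtie2, UMI-tools, featureCounts, deepTools and DESeq2 were used. Use of strand, multiply mapped reads and the annotation release are not given in the sources used here. Gene length was the span in bp, per the file headers, and 0 sample columns were unused.

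The 5 genes, the lists, the markers and the motifs were chosen with earlier results of these data known. Counts of 20 libraries were filtered (filterByExpr, minimum count 10, minimum total 15), TMM-scaled and fitted with a mean per group by edgeR 4.0.16 (robust quasi-likelihood, R 4.3.3). Contrasts were given to edgeR as weights on the group means, with limma 3.58.1 loaded. All tests were two-sided, with Benjamini-Hochberg adjustment over 16959 genes and a threshold of 0.05. Log2 CPM used a prior count of 2. Named were the 5 genes, their close relatives and nearest neighbours, the 3 most alike genes, and from each list up to 2 called genes per direction; 1 list gene is not reported here.

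Replicate numbers were checked for pairing: of 27 same-number correlations of deviations 10 were over 0.1 (median 0.0885, range -0.229 to 0.241), and all 3 numbers were over 0.1 in 1 of 7 comparisons, MM401 against DMSO in bicuculline at 4 h (0.107 to 0.172). Replicates of a group differed by more than sampling noise (chi-square per degree of freedom 6.41 to 82.7 over 19 pairs). The highest values, 82.7 and 48.1, were both of pairs with DMSO water 4 h replicate 1, and the next highest was 31.0. Alternatives were DESeq2 1.42.0, unscaled library sizes, no filter, all 21 libraries, a replicate block and leaving out each library.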

Additional observations from a re-analysis of the deposited data

How the results depend on the processing

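For MM401 against DMSO in water at 4 h, the 14 genes called became 162 with DESeq2, 4 with unscaled library sizes and 0 with all 21 libraries, and 0 to 1272 when 1 library was left out; of the 5 genes 0 were called, 1 with DESeq2 (C8b) and 0 to 1 when 1 library was left out. In bicuculline at 1 h the 1 gene called became 14 with DESeq2, 4 with the replicate block and 0 to 4 when 1 library was left out, and in bicuculline at 4 h the 0 became 7 with DESeq2. For water at 4 h against 1 h the 147 became 275 with DESeq2, 19 with all 21 libraries and 14 (without MM401 water 4 h replicate 1) to 280 (without DMSO water 4 h replicate 1); of the 5 genes 1 was called, 2 with DESeq2 (Bdkrb2, adjusted p = 0.0464), 0 with all 21 libraries and 0 to 1 when 1 library was left out. For the interaction the 0 became 436 with DESeq2 and 0 to 1551, the latter without DMSO water 4 h replicate 1; 0 to 1 of the 5 genes passed the threshold there, which is no test of them, since they were chosen on these libraries. For 4 h against 1 h of bicuculline, 5805 genes became 3745 in DMSO and 5691 became 3646 under MM401 with all 21 libraries.

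Directions turned only for small differences. Stc2 in MM401 against DMSO at bicuculline 1 h was 0.01 and became -0.039 with unscaled sizes, -0.0045 with all 21 libraries and -0.061 at the lowest without DMSO bicuculline 1 h replicate 3 (highest 0.12). Fgf10 there became -0.055 without MM401 bicuculline 1 h replicate 1 (highest 0.20), and in water at 4 h against 1 h -0.0080 without MM401 water 1 h replicate 3 and -0.0051 without MM401 water 4 h replicate 1 (highest 0.26). Bdkrb2 in MM401 against DMSO at bicuculline 4 h became 0.073 with unscaled sizes and 0.11 without MM401 bicuculline 4 h replicate 1 (lowest -0.13). With unscaled sizes Stc2 became -0.0070 in water at 4 h against 1 h and 0.13 in the interaction, and with all 21 libraries Dab1 became -0.19 in water at 4 h against 1 h and 0.21 in bicuculline against water at 4 h under MM401; with unscaled sizes it was -0.072 at 1 h and -0.083 at 4 h of bicuculline in DMSO. Unscaled sizes moved the median of all genes, to -0.30 at 4 h and -0.23 at 1 h of bicuculline in DMSO and 0.23 in the interaction, and changes are relative to it; the causes of the other shifts were not tested.

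The replicate block changed no call of the 5 genes; C8b in water at 4 h against 1 h was -1.01 with it (adjusted p = 0.00262). Of the most alike genes, 0 to 2 of 3 were kept under rank correlation or group means. Depth limits the low groups: Bdkrb2 and C8b had 32 to 161 counts a library in water 4 h and bicuculline 4 h, and Fgf10 had 42 to 93 outside bicuculline 4 h.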

Other observations

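Lists of activity-induced genes known from other work give the surrounding programme. Of 20 rapid genes, 19 rose at 1 h of bicuculline in each pretreatment, with median log2 fold changes of 2.83 in DMSO and 2.90 under MM401, beside -0.04 and -0.00178 over all genes. At 4 h 15 of them were called higher than water in DMSO and 17 under MM401, and 18 were lower than at 1 h in both. Of 18 delayed genes, 16 and 17 had risen by 1 h, and between 1 h and 4 h 3 rose and 10 fell in DMSO, and 3 rose and 9 fell under MM401. Of all genes 19.1% were called higher and 15.2% lower in that DMSO contrast, and 17.5% and 16% in that of MM401. Beside these lists, Fgf10 was at -0.11 ± 0.17 and Stc2 at -0.17 ± 0.11 at 1 h in DMSO, and Bdkrb2 was at 0.48 ± 0.28 at 4 h, where the rapid list had a median of 1.34; these differences from the lists were not tested. No gene of either list was called by edgeR in water at 4 h against 1 h, where 0.867% of all genes were called.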
